A study of Mus musculus with 9 samples.

Results

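Sarcomeric myosin heavy chains are the motor proteins of the thick filament in skeletal muscle and heart. The 9 genes described here, Myh1, Myh2, Myh3, Myh4, Myh6, Myh7, Myh7b, Myh8 and Myh13, were chosen by name as the sarcomeric members of the family, out of 35675 genes with an estimated count. Their RNA was measured in mouse embryonic fibroblasts (MEFs), labelled as embryonal tissue, by 9 poly(A)-selected libraries in 3 groups of 3. The group MyoD F/R/C had ectopic MyoD, a transcription factor able to switch cells of other kinds to a muscle fate, together with small molecules named only by the letters F/R/C. The group MyoD had MyoD without them, and the group MEF had no treatment. Every group, the untreated MEFs included, carried the Dmdmdx genotype, a mutation of the dystrophin gene used as a model of Duchenne muscular dystrophy. The labels do not say how MyoD was delivered, whether clones or pools of cells were used, or whether a group's 3 libraries are separate cultures. The p-values therefore speak of library-to-library spread, which may be technical.

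Each sarcomeric heavy chain pairs with a second heavy chain and binds light chains, and its head splits ATP to pull on actin. Which genes of the family are used sets how fast and how long a fibre can contract, and in skeletal muscle the developmental chains Myh3 and Myh8 are made before the adult ones. In the mouse, Myh3 encodes the embryonic chain, Myh8 the perinatal chain, Myh2, Myh1 and Myh4 the adult fast chains IIa, IIx and IIb, and Myh13 the chain of extraocular muscle. Myh7 encodes the slow or beta-cardiac chain, Myh6 the alpha-cardiac chain, and Myh7b an ancient relative of the slow chains.

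The genes lie at 3 places in GRCm38, with coordinates from the GENCODE M21 annotation. A cluster on the plus strand of chromosome 11 runs, in this order, from Myh3 (chr11:67078300-67102291) through Myh2 (chr11:67171027-67197517), Myh1 (chr11:67200052-67224575), Myh4 (chr11:67238029-67260446) and Myh8 (chr11:67277124-67308634) to Myh13 (chr11:67321658-67371586). Myh6 (chr14:54941921-54966927) and Myh7 (chr14:54970684-54994626) are neighbours on the minus strand of chromosome 14, and Myh7b (chr2:155611212-155634307) lies on the plus strand of chromosome 2. RefSeq promoter sequences of GRCm38.p6, 250 bases before and 50 bases after each gene's start, were available for all 9. Those of Myh3 and Myh8, the 2 most abundant members, and of Myh1 and Myh2, which behaved differently between the groups, are shown 5′ to 3′ on the plus strand. The capitals mark TTCTAATTATATCC, the longest word shared by the promoters of at least 4 members, which was picked by looking at these promoters and is given as a description.
Myh3 (chr11:67078050-67078349): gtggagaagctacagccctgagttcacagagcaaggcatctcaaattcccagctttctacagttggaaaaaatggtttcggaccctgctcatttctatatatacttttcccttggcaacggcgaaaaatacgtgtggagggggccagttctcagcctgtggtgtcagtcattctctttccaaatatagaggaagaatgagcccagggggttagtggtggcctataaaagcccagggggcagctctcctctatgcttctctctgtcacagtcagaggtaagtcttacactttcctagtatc
Myh8 (chr11:67276874-67277173): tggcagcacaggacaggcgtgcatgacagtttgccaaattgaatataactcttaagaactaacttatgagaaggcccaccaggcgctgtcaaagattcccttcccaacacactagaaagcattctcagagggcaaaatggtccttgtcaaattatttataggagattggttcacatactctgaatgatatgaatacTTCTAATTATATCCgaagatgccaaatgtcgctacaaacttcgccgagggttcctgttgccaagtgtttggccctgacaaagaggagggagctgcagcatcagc
Myh1 (chr11:67199852-67200151): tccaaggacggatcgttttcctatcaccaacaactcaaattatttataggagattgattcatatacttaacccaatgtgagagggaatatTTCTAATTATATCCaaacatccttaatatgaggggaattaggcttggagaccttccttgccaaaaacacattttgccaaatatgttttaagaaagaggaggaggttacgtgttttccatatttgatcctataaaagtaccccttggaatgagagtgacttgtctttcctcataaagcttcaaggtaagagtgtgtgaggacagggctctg
Myh2 (chr11:67170777-67171076): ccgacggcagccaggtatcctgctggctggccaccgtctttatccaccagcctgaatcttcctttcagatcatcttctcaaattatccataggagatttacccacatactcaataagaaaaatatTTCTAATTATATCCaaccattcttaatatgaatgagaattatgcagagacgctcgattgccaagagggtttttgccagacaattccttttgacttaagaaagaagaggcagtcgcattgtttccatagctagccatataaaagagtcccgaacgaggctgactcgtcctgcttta
The 14-letter word began 54 bases before the start of Myh8, 125 before that of Myh2, 160 before that of Myh1 and 158 before that of Myh4. Searched on both strands, it was found in 4 of 32851 RefSeq promoters, which were those of these 4 genes. The 300 bases of Myh3 did not hold it. The E-box CANNTG, the short motif that MyoD and many related factors bind, was found on either strand 1 time in the window of Myh3, 2 times in that of Myh8, 3 times in that of Myh4 and 0 times in those of Myh1 and Myh2, and 72.3% of all promoters of this length hold at least 1. A MEF2 site was found 1 time each for Myh8, Myh1 and Myh4, against 3.19% of all promoters with a match, and none of the 3 overlaps the capitals. TATAAA was found in the windows of Myh3, Myh8, Myh1, Myh2, Myh4 and Myh6, against 13.6% of all promoters, and in those of Myh1, Myh8 and Myh4 one match lies inside the MEF2 site. A match is only a run of letters, and binding was not measured.

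The libraries held 21066815 to 24175719 counts assigned to genes, and 3 counts, which a listed 0 cannot exclude, stood for 0.113 to 0.144 CPM (counts scaled to the TMM library size). Such limits and all intervals below cover counting error only. Myod1, the gene of MyoD, had 6412, 6163 and 6874 counts in MyoD F/R/C, 161, 239 and 394 in MyoD, and 56, 10 and 130 in MEF, where reads from an introduced copy and from the gene itself cannot be told apart. The library MEF 3 stood apart from its group in muscle genes. The summed level of 10 skeletal muscle markers was 16393 to 24872 CPM in MyoD F/R/C, 606 to 1804 CPM in MyoD, and 6.76, 3.64 and 268 CPM in MEF 1, 2 and 3, and sizes of fold over MEF rest largely on it. Calls of the members and of most lists over MEF are therefore given with and without MEF 3. The exceptions are the nonmuscle and smooth muscle myosins and the smooth muscle, fibroblast and skeletal muscle markers. Summed over 10 fibroblast markers, the level was 7074 to 10606 CPM in MyoD F/R/C, 15021 to 39775 CPM in MyoD and 27154 to 87497 CPM in MEF. In these bulk libraries, fewer cells of a type and less RNA per cell cannot be told apart.

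MyoD F/R/C cells held by far the most myosin heavy chain RNA, and most of it was embryonic and perinatal. The 9 genes summed to 416670, 357049 and 417913 estimated counts in MyoD F/R/C, to 9312, 11119 and 27210 in MyoD, and to 35, 34 and 5705 in MEF. The groups MyoD F/R/C and MyoD did not overlap, and MEF 3 was the only MEF library above 35 counts. The family took 1.68% ± 0.11 of all counts in MyoD F/R/C and 0.0740% ± 0.0478 in MyoD (SD, n = 3 each). Its mean level was 17943 ± 1936 CPM in MyoD F/R/C, 715 ± 514 CPM in MyoD and 88.7 ± 151 CPM in MEF. These means stand at ratios of 25.1 for MyoD F/R/C over MyoD, 202 for MyoD F/R/C over MEF and 8.06 for MyoD over MEF. On the TPM scale, which counts transcripts per length, the same ratios were 20.1, 161 and 7.99. The MEF mean is almost wholly MEF 3, with 1.64, 1.37 and 263 CPM in MEF 1, 2 and 3. Against MEF 1 and 2 alone, which held 69 family counts, the ratio was 11908 for MyoD F/R/C and 475 for MyoD. The MyoD mean in that ratio includes MyoD 3, at 1309 CPM against 417 and 420 CPM in MyoD 1 and 2. The sums do not depend on how reads were divided among similar members, and no test was run on them.

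**Figure D1:**
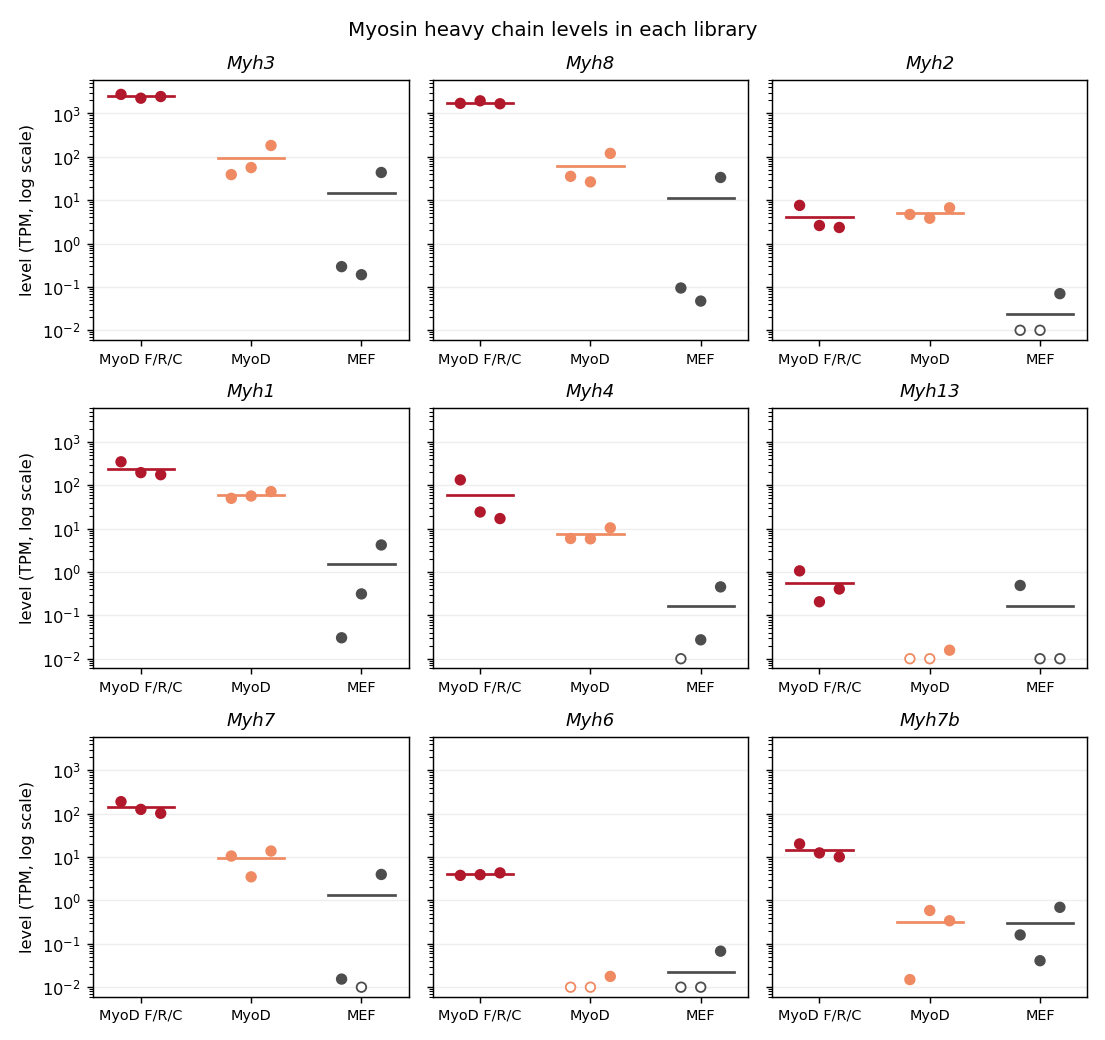
Level of each of the 9 genes in TPM (log axis) in every library, in the groups MyoD F/R/C, MyoD and MEF from left to right; points are libraries 1, 2 and 3 from left to right, lines are group means, and open points at the bottom are libraries below 0.01 TPM. Myh3 and Myh8 lie at or above 1676 TPM in all 3 MyoD F/R/C libraries, Myh2 is alike in MyoD F/R/C and MyoD, and MEF 3 lies above MEF 1 and 2 for every gene but Myh13.

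All 9 genes were called higher in MyoD F/R/C than in MEF, at log2 fold changes of 4.35 to 8.71 and adjusted p of 0.0011 to 0.0316 (edgeR quasi-likelihood F test, two-sided, Benjamini-Hochberg over 15714 genes, called under 0.05). Of all genes tested, 19.5% were called higher in this comparison. Between MyoD F/R/C and MyoD, 5 of the 9 were called higher, against 17.8% of all genes. These 5 were Myh4, Myh7, Myh6, Myh7b and Myh13, which are not the most abundant members. Between MyoD and MEF, none of the 9 was called, and 0.0% of all genes were, although 732 genes had an unadjusted p under 0.05. DESeq2 called Myh1, Myh2 and Myh4 higher in MyoD than in MEF, where it called 0.908% of all genes higher.

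Several of these calls turned on MEF 3. Without it, the 9 genes stayed called between MyoD F/R/C and MEF, a comparison whose share of all genes without MEF 3 is not given here. Between MyoD F/R/C and MyoD, 8 of the 9 were then called higher, all but Myh2, against 16.4% of all genes. The same 8 were called when these 2 groups were fitted alone, against 16.3% of all genes. Between MyoD and MEF, 6 were called higher without MEF 3, against 0.97% of all genes, and they were Myh1, Myh2, Myh3, Myh4, Myh7 and Myh8. MyoD 3, which goes with MEF 3 by number and had the highest family sum of its group, stayed in that fit. The same 6 were called when both libraries were left out, a fit whose share of all genes is not given here. MEF 3 was singled out after its muscle gene counts were seen. Leaving out the MEF library with the highest counts of these genes raises their fold over MEF and narrows the spread in advance. The calls without MEF 3, here and below, are therefore a description.

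**Figure D2:**
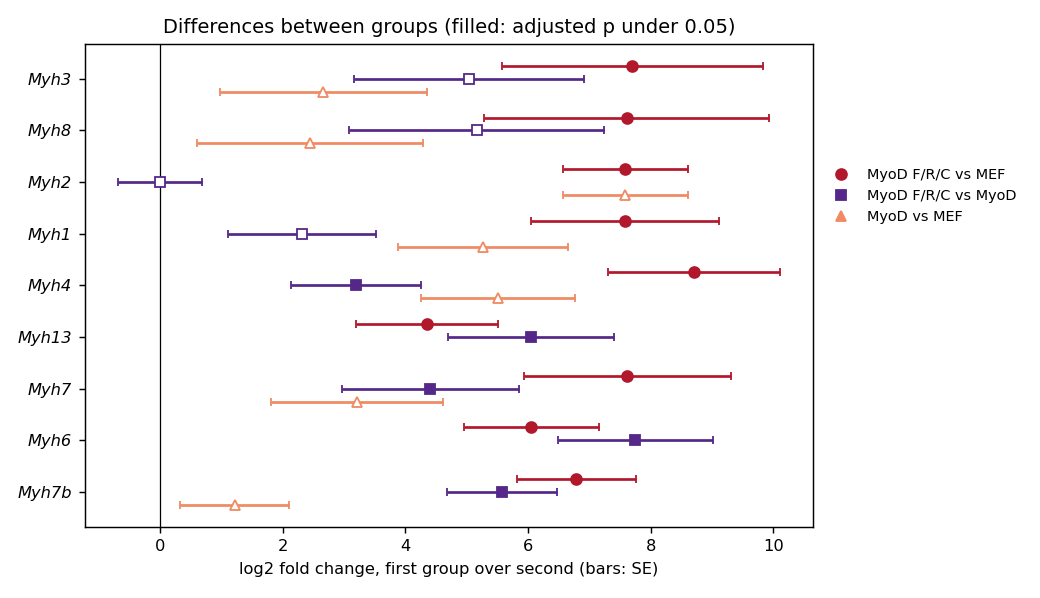
Log2 fold change of each gene, the first group named over the second, with its SE as a bar, for MyoD F/R/C vs MEF (circles), MyoD F/R/C vs MyoD (squares) and MyoD vs MEF (triangles); filled marks have an adjusted p under 0.05. All 9 circles are filled, 5 of the 9 squares are filled with Myh2 at 0, and no triangle is filled; the triangles of Myh6 and Myh13 are left out because both groups were at or near 0 counts.

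Myh3, the embryonic chain and the most abundant member, had 223429, 176116 and 232592 estimated counts in MyoD F/R/C, 2613, 4210 and 12353 in MyoD, and 19, 14 and 2947 in MEF. The 3 MyoD F/R/C libraries lay far above all others, and MEF 3 lay between MyoD 1 and MyoD 2. Its level was 9524 ± 1575 CPM in MyoD F/R/C, 290 ± 264 CPM in MyoD and 45.8 ± 78.1 CPM in MEF (SD, n = 3 each). The log2 fold change of MyoD F/R/C over MEF was 7.70 ± 2.12 (SE, adjusted p = 0.0209), and 13.63 ± 1.19 without MEF 3 (adjusted p = 0.00029). Over MyoD it was 5.04 ± 1.88 (adjusted p = 0.0675), which missed the threshold with MEF 3 in the fit and passed it without MEF 3 (4.97 ± 0.69, adjusted p = 0.0017). MyoD over MEF was 2.66 ± 1.69 (adjusted p = 1.00), and without MEF 3 it was 8.66 ± 1.00 (adjusted p = 0.0063).

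Myh8, the perinatal chain, followed Myh3 closely. It had 141666, 156037 and 161618 estimated counts in MyoD F/R/C, 2433, 1995 and 8264 in MyoD, and 6, 2 and 2309 in MEF. Again MEF 3 lay within the range of the MyoD libraries, and MEF 1 and 2 were near 0. The log2 fold change over MEF was 7.61 ± 2.33 (adjusted p = 0.0316) and that over MyoD was 5.16 ± 2.08 (adjusted p = 0.0855). Against MEF 1 and 2 alone, the MyoD F/R/C counts stood at a ratio of 39954 (95% exact interval 20277 to 92546). The call over MEF was lost without any of the 3 MyoD F/R/C libraries, at adjusted p of 0.0564, 0.0581 and 0.0671 without libraries 1, 2 and 3. Without MEF 3, the change over MyoD became 5.09 ± 0.71 (adjusted p = 0.0018). The Myh3 to Myh8 count ratio was 1.58, 1.13 and 1.44 in MyoD F/R/C and 1.07, 2.11 and 1.49 in MyoD, so that the groups overlapped.

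Myh1, the IIx chain and the most abundant adult member, had 27444, 15090 and 16534 estimated counts in MyoD F/R/C, 3236, 4067 and 4790 in MyoD, and 2, 13 and 286 in MEF. No MyoD F/R/C library overlapped a MyoD library, and no MyoD library overlapped a MEF library. The level was 878 ± 243 CPM in MyoD F/R/C, 176 ± 47.1 CPM in MyoD and 4.596 ± 7.43 CPM in MEF (SD, n = 3 each). The log2 fold change of MyoD F/R/C over MEF was 7.58 ± 1.53 (adjusted p = 0.0058), and 11.36 ± 0.77 without MEF 3 (adjusted p = 0.00019). Over MyoD it was 2.32 ± 1.20 (adjusted p = 0.167) in the fit of all 9 libraries and 2.24 ± 0.41 (adjusted p = 0.0053) without MEF 3. MyoD over MEF was 5.26 ± 1.38 (adjusted p = 0.489), and 9.12 ± 0.71 (adjusted p = 0.0024) without MEF 3.

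Myh2, the IIa chain, was the member that MyoD F/R/C and MyoD did not separate. It had 618, 206 and 224 estimated counts in MyoD F/R/C, 312, 279 and 448 in MyoD, and 0, 0 and 5 in MEF. The 2 groups with MyoD overlapped, at 15.4 ± 9.19 CPM in MyoD F/R/C and 15.4 ± 5.65 CPM in MyoD (SD, n = 3 each). Their log2 fold change was 0.00 ± 0.69 (adjusted p = 0.999), a value whose error leaves room for differences of more than 1 on the log2 scale. Over MEF, the summed counts stood at a ratio of 214 for MyoD F/R/C (95% exact interval 91.4 to 661) and 203 for MyoD (86.7 to 627). The test gave an adjusted p of 0.0011 for MyoD F/R/C over MEF and 0.0970 for MyoD over MEF, the smallest of all genes in that comparison. For MyoD over MEF it was 0.0055 without MEF 3.

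Myh4, the IIb chain of the fastest mouse fibres, had 10991, 1921 and 1654 estimated counts in MyoD F/R/C, 399, 439 and 708 in MyoD, and 0, 2 and 31 in MEF. The groups did not overlap, but MyoD F/R/C 1 stood far above the other libraries of its group. Over MEF, the log2 fold change was 8.71 ± 1.40 (adjusted p = 0.0023), and against the 2 counts of MEF 1 and 2 alone the ratio was 5068 (95% exact interval 1403 to 41853). Over MyoD it was 3.20 ± 1.06 (adjusted p = 0.0453), and without MyoD F/R/C 1 it was 1.87 ± 0.99 (adjusted p = 0.194). The call over MyoD was also lost without any other library of these 2 groups, at adjusted p of 0.0586 to 0.137. The Myh1 to Myh4 count ratio was 2.50, 7.85 and 9.996 in MyoD F/R/C and 8.11, 9.27 and 6.77 in MyoD.

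Myh13, the extraocular chain, was the scarcest member, at 42, 11 and 36 estimated counts in MyoD F/R/C, 0, 0 and 1 in MyoD, and 4, 0 and 0 in MEF. In counts, all 3 MyoD F/R/C libraries lay above all 6 others. In TPM they did not, with 1.06, 0.206 and 0.405 in MyoD F/R/C and 0.490 in MEF 1, where most of the value comes from a transcript of 668 bases, and the ratio of mean TPM over MEF was 3.42. The summed counts stood at a ratio of 93.0 over MyoD (95% exact interval 16.3 to 3715) and 22.7 over MEF (8.57 to 85.2), and the adjusted p was 0.0105 over MyoD and 0.0177 over MEF. The call over MEF was lost without MEF 2, MyoD F/R/C 1 or MyoD F/R/C 3, at adjusted p of 0.0603, 0.0523 and 0.0564.

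Myh7, the slow chain, had 11400, 6979 and 4799 estimated counts in MyoD F/R/C, 318, 113 and 622 in MyoD, and 1, 0 and 113 in MEF. MyoD F/R/C lay above both other groups in every library, and MEF 3 had the count of MyoD 2. The log2 fold change was 7.62 ± 1.69 over MEF (adjusted p = 0.0085) and 4.41 ± 1.44 over MyoD (adjusted p = 0.0431). The call over MyoD was lost without MyoD 1, MyoD 2 or any MyoD F/R/C library, at adjusted p of 0.0791 to 0.127, and it held without MyoD 3 or any MEF library. Against the 1 count of MEF 1 and 2 alone, the ratio was 16129 (95% exact interval 2895 to 637098).

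Myh7b was low outside MyoD F/R/C. It had 962, 569 and 403 estimated counts in MyoD F/R/C, 1, 17 and 23 in MyoD, and 3, 3 and 11 in MEF. The MyoD and MEF libraries overlapped. The log2 fold change was 6.79 ± 0.97 over MEF (adjusted p = 0.0014) and 5.57 ± 0.90 over MyoD (adjusted p = 0.0030). Both calls held without any 1 of the 9 libraries, and against the 6 counts of MEF 1 and 2 alone the ratio was 224 (95% exact interval 103 to 612). The Myh7 to Myh7b count ratio was 11.8, 12.3 and 11.9 in the 3 MyoD F/R/C libraries, while the counts of both genes differed between those libraries by more than 2 times.

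Myh6, the alpha-cardiac chain, had 119, 119 and 53 estimated counts in MyoD F/R/C, 0, 0 and 1 in MyoD, and 0, 0 and 4 in MEF. The summed counts stood at a ratio of 303 over MyoD (95% exact interval 54.0 to 12014) and 74.05 over MEF (28.6 to 274). The adjusted p was 0.0031 over MyoD and 0.0036 over MEF, and both calls held without any 1 of the 9 libraries. Myh6 counts were 1.04%, 1.71% and 1.10% of those of Myh7 in the 3 MyoD F/R/C libraries. Of all 31-letter words in the Myh6 transcripts, 29.1% are also in Myh7, and how far reads of Myh7 were counted for Myh6 was not tested.

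Of the 10 heart markers, the summed level overlapped between the groups, at 13.9 to 31.1 CPM in MyoD F/R/C, 17.9 to 58.0 CPM in MyoD and 17.1 to 39.0 CPM in MEF. Of the 6 tested, Nppb and Sln, which encode a natriuretic peptide and a calcium pump inhibitor, were called higher and Hand2, a transcription factor, lower in MyoD F/R/C than in MEF. Among all genes, 19.5% were called higher and 18.1% lower. Nppa, Nkx2-5 and Myl7 were at 0 counts in all MyoD and MEF libraries, and Myl7, the atrial light chain, had 0, 1 and 0 counts in MyoD F/R/C. Without MEF 3, 4 were called higher and 1 lower of 8 tested, counts that have no share of all genes beside them here.

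Expressed per length in TPM, so that genes can be compared, the order in MyoD F/R/C was Myh3 (2487 ± 253), Myh8 (1782 ± 154), Myh1 (239.9 ± 94.3), Myh7 (139.6 ± 45.3), Myh4 (58.2 ± 65.2), Myh7b (14.3 ± 5.23), Myh2 (4.18 ± 2.95), Myh6 (4.02 ± 0.28) and Myh13 (0.56 ± 0.45), each as mean ± SD over 3 libraries. The ranges of neighbours overlapped for Myh1 and Myh7, Myh7 and Myh4, Myh4 and Myh7b, and Myh2 and Myh6, although Myh1 lay above Myh7, Myh7 above Myh4 and Myh4 above Myh7b within each library. In MyoD the order began with Myh3 (92.7 ± 78.4), Myh8 (60.7 ± 51.7) and Myh1 (59.4 ± 11.03), whose ranges overlapped, and Myh1 exceeded Myh8 in 2 of 3 libraries. Next came Myh7 (9.30 ± 5.27), Myh4 (7.40 ± 2.63) and Myh2 (5.07 ± 1.46), and the last 3 members were at or below 0.587 TPM in every MyoD library. In MEF the ranges of all neighbours overlapped, and MEF 3 set the means. A part of the TPM of Myh7, Myh7b and Myh6 came from short transcripts. In MyoD F/R/C these gave 47.7 of 139.6 TPM from Myh7-206 of 595 bases, 6.62 of 14.3 TPM from Myh7b-203 and 2.72 of 4.02 TPM from Myh6-207. For Myh6 this was most of the level, and it rested on 12, 11 and 20 estimated counts in MyoD F/R/C 1, 2 and 3.

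**Figure D3:**
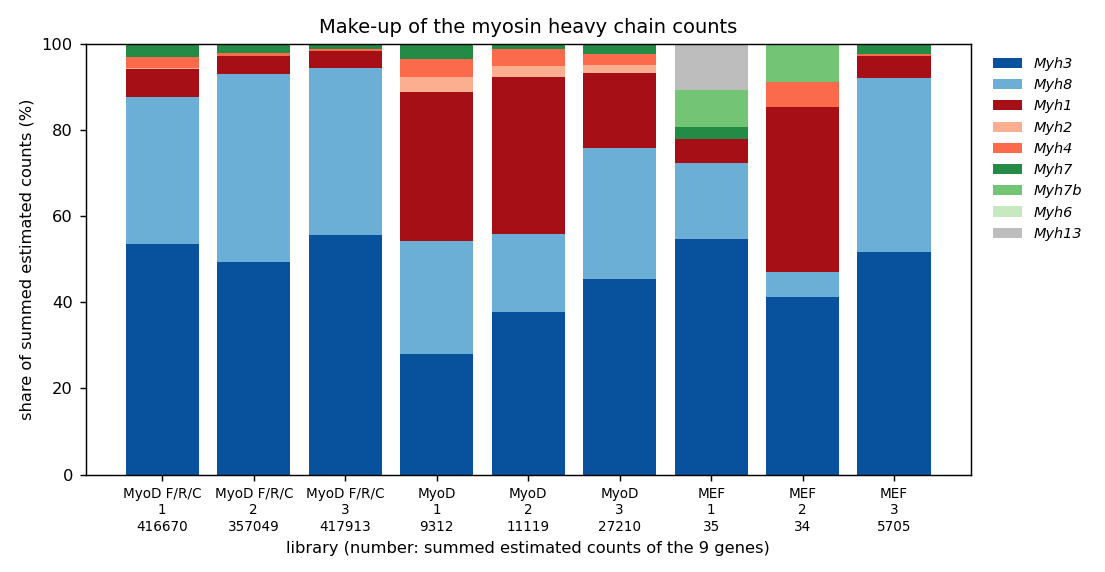
Share of each gene in the summed estimated counts of the 9 genes, in percent, for each library, with the groups MyoD F/R/C, MyoD and MEF from left to right and the summed counts under each bar. The developmental genes (blue) take 87.6% to 94.3% in MyoD F/R/C and 54.2% to 75.8% in MyoD, where the adult fast genes (red) are larger; MEF 1 and 2 rest on 35 and 34 counts.

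As shares of the summed family, the developmental members took more and the adult fast members less in MyoD F/R/C than in MyoD, without overlap between the libraries. Myh3 and Myh8 together took 91.7% ± 3.6 of the counts in MyoD F/R/C and 61.9% ± 12.0 in MyoD (SD, n = 3 each). Myh2, Myh1 and Myh4 together took 6.20% ± 2.76 in MyoD F/R/C and 35.8% ± 12.0 in MyoD. Each of these differences had an exact two-sided permutation p of 0.1, the smallest that 3 libraries against 3 can give, and 0.171 after Benjamini-Hochberg adjustment over 12 shares, so that neither passes 0.05. The summed levels of the same classes stood at a ratio of MyoD F/R/C over MyoD of 34.0 for the developmental members and 5.14 for the adult fast members, and of MyoD over MEF of 5.94 and 41.4. Against MEF 1 and 2 alone, which held 42 and 17 counts of these classes, MyoD stood at ratios of 528 for the developmental and 615 for the adult fast members. The gap between the classes was therefore smaller without MEF 3. MyoD 3 stayed in these ratios, with 992 CPM of the developmental members against 226 and 234 CPM in MyoD 1 and 2.

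Among single members, Myh3 took 52.9% ± 3.2 in MyoD F/R/C and 37.1% ± 8.7 in MyoD, and Myh8 took 38.8% ± 4.9 in MyoD F/R/C and 24.8% ± 6.3 in MyoD. Myh1 took 4.92% ± 1.45 in MyoD F/R/C and 29.6% ± 10.5 in MyoD, and Myh2 took 0.0865% ± 0.0536 in MyoD F/R/C and 2.50% ± 0.85 in MyoD. None of these 4 shares overlapped between the groups, with the same p as above. The same held for Myh6, at 0.0248% ± 0.0108 in MyoD F/R/C and 0.0014% ± 0.0024 in MyoD, where its counts were 0, 0 and 1. The shares of Myh7b and Myh13 overlapped. The share of Myh4 was 1.19% ± 1.26 in MyoD F/R/C and 3.61% ± 0.89 in MyoD and overlapped through MyoD F/R/C 1. The share of Myh7 was 1.95% ± 0.79 in MyoD F/R/C and 2.24% ± 1.20 in MyoD, with an exact p of 0.8. The ratio of Myh1 to Myh2 counts was 44.4, 73.2 and 73.9 in MyoD F/R/C and 10.4, 14.6 and 10.7 in MyoD.

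Within MyoD, the library MyoD 3 had the highest family sum and a developmental share of 75.8%, against 54.2% and 55.8% in MyoD 1 and 2. In MEF 3 the developmental share was 92.1% of 5705 counts (95% Wilson interval 91.4 to 92.8), inside the range of the MyoD F/R/C libraries and above that of the MyoD libraries. Its summed level of 263 CPM was below that of every MyoD library, the lowest of which had 417 CPM.

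**Figure D4:**
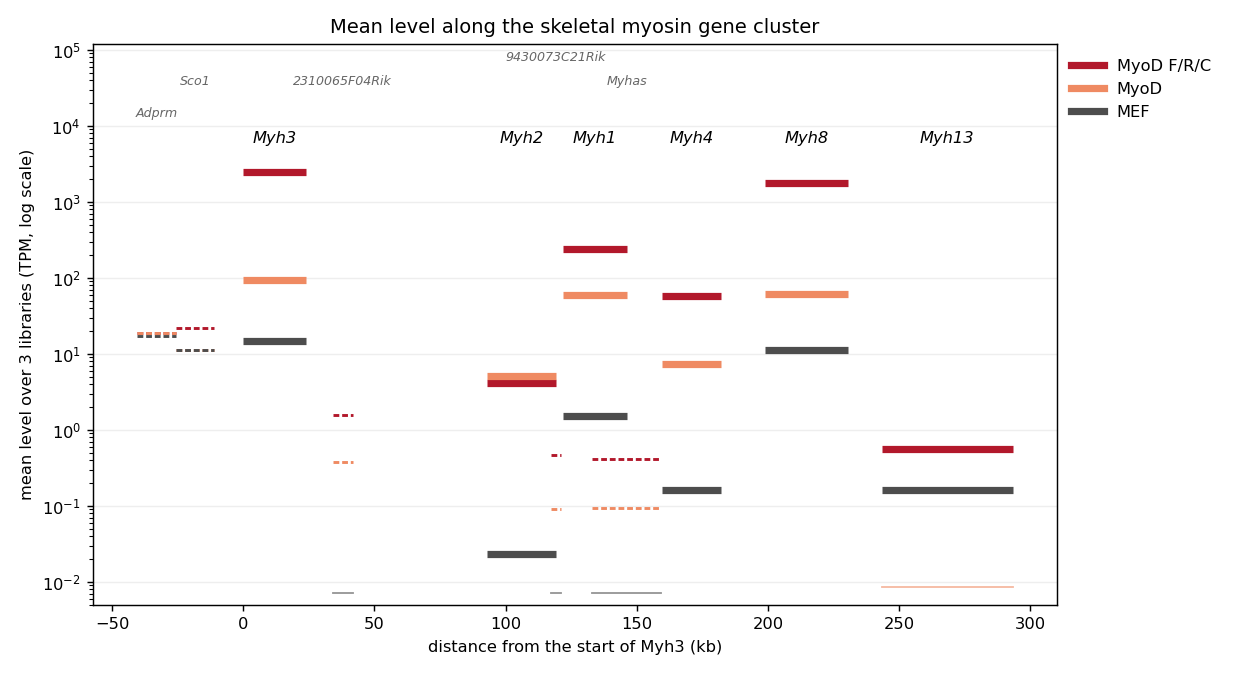
Mean level in TPM (log axis) of the 6 chromosome 11 members (thick lines) and of genes beside and between them (thin broken lines), drawn over their extent in kb from the start of Myh3; groups are MyoD F/R/C, MyoD and MEF, and faint lines under 0.01 TPM are means at or near 0. MyoD F/R/C lies far above both other groups over Myh3 and Myh8, where the libraries of MyoD and MEF overlap, MyoD F/R/C and MyoD meet at Myh2, and the flanking Adprm is alike in the 3 groups.

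Along the chromosome 11 cluster, the members' order of levels did not follow their order on the chromosome. The most abundant genes, Myh3 and Myh8, lie apart, with the 3 adult fast genes between them. The flanking gene Adprm, which lies before Myh3, had 300, 193 and 307 counts in MyoD F/R/C, 239, 289 and 177 in MyoD, and 226, 243 and 206 in MEF, with a log2 fold change over MEF of 0.28 (adjusted p = 0.413). Sco1, a mitochondrial copper chaperone gene between Adprm and Myh3, was called higher in MyoD F/R/C than in MEF by 1.41 and than in MyoD by 1.23 on the log2 scale (adjusted p = 0.0013 and 0.0029). Gas7, on the other side, had a log2 fold change of -0.71 over MEF (adjusted p = 0.232). Inside the cluster, on the opposite strand, 2310065F04Rik had 34, 22 and 54 counts in MyoD F/R/C, 4, 10 and 7 in MyoD and 0 in each MEF library. 9430073C21Rik, which overlaps the end of Myh2 on the opposite strand, had 22, 13 and 17 counts in MyoD F/R/C, 1, 4 and 3 in MyoD and 0 in each MEF library, and was called higher than in MyoD by 2.71 on the log2 scale (adjusted p = 0.0160). Myhas, which overlaps Myh1 on the opposite strand, had 6, 5 and 7 counts in MyoD F/R/C, 0, 0 and 3 in MyoD and 0 in each MEF library. Whether counting used strand is not given in the sources used here, so that reads of Myhas and Myh1, and of 9430073C21Rik and Myh2, cannot be told apart with certainty.

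How well reads can be assigned to 1 member depends on the letters they share. Of the distinct 31-letter words in a gene's annotated transcripts, 99.7% were in no other gene for Myh7b, 89.4% for Myh3, 86.6% for Myh13, 81.4% for Myh8, 72.1% for Myh7, 70.8% for Myh6, 69.6% for Myh4, 65.5% for Myh2 and 57.1% for Myh1. Of the words of Myh1, 26.8% were also in Myh2, and of those of Myh2, 23.9% were also in Myh1. The low Myh2 counts therefore stand beside a similar gene with over 10 times its counts in each MyoD and MyoD F/R/C library. Myh8 also held 16.8% of the words of Myh2. In MyoD F/R/C, Myh8 had 141666 to 161618 counts and Myh2 had 206 to 618. How far reads of Myh1 or Myh8 were counted for Myh2 was not tested. The chromosome 11 members summed to 17567 ± 2013 CPM in MyoD F/R/C, 698 ± 502 CPM in MyoD and 86.7 ± 148 CPM in MEF, and Myh6 and Myh7 summed to 347 ± 127 CPM in MyoD F/R/C, 16.2 ± 13.0 CPM in MyoD and 1.81 ± 3.10 CPM in MEF, values that a division of reads within each set cannot move.

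**Figure D5:**
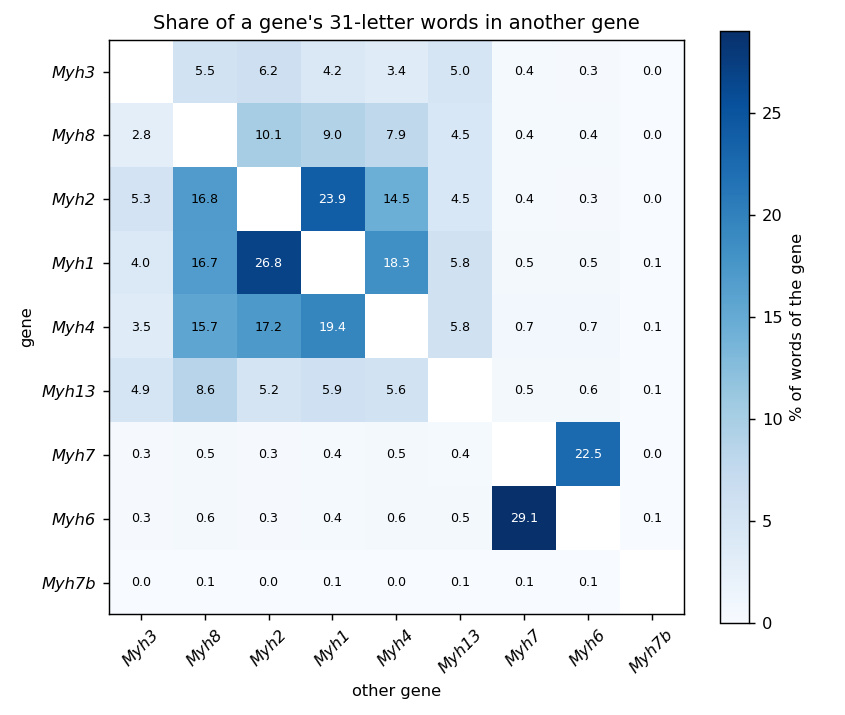
Percent of the 31-letter words of each gene (rows) that also occur in each other gene (columns), over all annotated transcripts. The adult fast genes Myh1, Myh2 and Myh4 share 14.5% to 26.8% with each other, Myh6 and Myh7 share 22.5% and 29.1%, and Myh7b shares at most 0.11% with any member.

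At the level of transcripts, 20 of the 38 annotated for the 9 genes passed the filter on low counts. Of these, 14 were called higher in MyoD F/R/C than in MEF, against 6.71% of all transcripts, and 4 were called higher than in MyoD, against 4.09%. All 9 libraries were in this fit, MEF 3 included. The 4 were Myh7b-201, Myh7b-203, Myh8-203 and Myh7-206, of which the last 3 are annotated as retained-intron transcripts. Myh3-202 and Myh8-201, the most abundant member transcripts in MyoD F/R/C at mean levels of 1913 and 1761 TPM, were called in neither comparison. By the same edgeR test, their adjusted p was 0.107 and 0.0935 over MEF, and 0.258 and 0.208 over MyoD. Myh8-201 held 99.4% of the Myh8 counts in each MyoD F/R/C library. The 3 Myh3 transcripts differ in at most 1.25% of their words, and Myh3-202 was given 88.8%, 83.2% and 58.2% of the Myh3 counts in the MyoD F/R/C libraries, a spread that is given as the estimate and not as a difference in splicing.

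The slow and cardiac members host miRNAs in their introns, small RNAs that repress messages and are known from heart and slow muscle to act within the myosin programme. RefSeq lists miR-208b inside Myh7, miR-208a inside Myh6 and miR-499 inside Myh7b. It also lists miR-6923 inside Myh3, so that hosting a miRNA is not particular to the slow and cardiac members. One mature strand each of miR-208b, miR-208a and miR-499 is shown 5′ to 3′ because their hosts are the slow and cardiac members described above. The capitals mark the seed, bases 2 to 8.
miR-208b-3p: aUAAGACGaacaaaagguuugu
miR-208a-3p: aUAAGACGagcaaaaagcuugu
miR-499-5p: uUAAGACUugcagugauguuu
The seeds of miR-208a-3p and miR-208b-3p are the same, and that of miR-499-5p differs from them only at base 8. Libraries of polyadenylated RNA counted on gene transcripts do not measure mature miRNAs, and no level is given for them.

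Over the 9 libraries, the genes outside the family whose log2 CPM was most like the family sum were Casq2, Mybpc1 and Myom2 (Pearson r = 0.999, 0.999 and 0.998, among the 9748 genes whose mean log2 CPM reached 3). They encode a calcium-binding protein of the sarcoplasmic reticulum, a myosin-binding protein and an M-band protein. Most like Myh3 were Myog, Actn2 and Casq2, and most like Myh8 were Mybpc1, Casq2 and Actn2. Most like Myh1 was Smyd1 (r = 0.991), a methyltransferase that acts in myosin folding and assembly, which was also nearest to Myh4 (r = 0.983). Myh2 was less like any gene, with Xirp2 nearest (r = 0.9501). Most like Myh7 were Actn2, Trim55 and Mypn, and most like Myh7b was Plekha7 (r = 0.997). Within the family, Myh3 and Myh8 were most alike (r = 0.998) and Myh2 and Myh13 least (r = 0.382). The libraries share groups that differ in level, and these r values are descriptions.

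Light chains and thick filament proteins are the direct partners of the heavy chains. The counts of this and the next paragraphs stand beside 19.5% of all genes called higher and 18.1% lower than in MEF, and 17.8% higher and 16.1% lower than in MyoD. Without MEF 3, 16.4% of all genes were called higher than in MyoD, and the share over MEF is not given here. Of the light chains of the sarcomere, 4 of 5 tested were called higher than in MEF and 2 of 5 than in MyoD, and without MEF 3 both counts were 5 of 6. Myl4, the embryonic and atrial light chain, had 3654 ± 1669.9 CPM in MyoD F/R/C, 149 ± 91.2 CPM in MyoD and 18.3 ± 25.1 CPM in MEF (SD, n = 3 each), with a log2 fold change of 4.62 ± 1.10 over MyoD (adjusted p = 0.0132). Mylpf, the fast regulatory light chain, had 3135 ± 1335 CPM in MyoD F/R/C, 195 ± 107 CPM in MyoD and 13.3 ± 22.3 CPM in MEF and was called over MEF only. Myl2, the slow and ventricular regulatory light chain, had 0.367 ± 0.230 CPM in MyoD F/R/C, 0.345 ± 0.205 CPM in MyoD and 0.433 ± 0.225 CPM in MEF. Of the thick filament partners, 10 of 10 tested were called higher than in MEF and 6 of 10 than in MyoD, with medians of 7.70 and 4.06 on the log2 scale beside medians of -0.04 and -0.02 over all genes. Mybpc2, fast myosin-binding protein C, was higher by 8.23 ± 0.81 over MEF (adjusted p = 0.000375) and by 4.54 ± 0.65 over MyoD (adjusted p = 0.0019), and Ttn, titin, by 6.99 ± 1.95 over MEF (adjusted p = 0.0219). Without MEF 3, these values over MEF were 9.98 ± 0.69 for Mybpc2 and 12.96 ± 1.14 for Ttn.

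Factors that fold and assemble myosin were called in part. Of 10 tested, 5 were called higher than in MEF, which were Unc45b, Smyd1, Hspb7, Smyd2 and Hsp90ab1, and 3 were called higher than in MyoD, a share of the list not far from that of all genes. Without MEF 3, 4 were called in each comparison. Unc45b, a chaperone of muscle myosin, had 164 ± 43.6 CPM in MyoD F/R/C, 9.05 ± 5.95 CPM in MyoD and 1.15 ± 1.61 CPM in MEF, with log2 fold changes of 7.16 ± 1.08 over MEF (adjusted p = 0.0017) and 4.18 ± 0.93 over MyoD (adjusted p = 0.0102). Smyd1 rose by 7.84 ± 1.43 over MEF (adjusted p = 0.0037). Unc45a, the general relative of Unc45b, was at 0.21 ± 0.22 over MEF (adjusted p = 0.482), and Bag3, a co-chaperone, at 0.09 ± 0.22 (adjusted p = 0.775).

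Partners typical of fast fibres and of slow fibres were both called. All 9 fast fibre partners were called higher than in MEF and 5 of 9 than in MyoD. Pvalb, the calcium buffer of fast fibres, had 79.5 ± 39.9 CPM in MyoD F/R/C, 1.41 ± 0.78 CPM in MyoD and 0.215 ± 0.373 CPM in MEF, with a log2 fold change of 5.82 ± 1.00 over MyoD (adjusted p = 0.0039). Of 8 slow fibre partners, 6 were called higher and Tpm3, a tropomyosin also made outside muscle, lower than in MEF, and 3 higher and Tpm3 lower than in MyoD. Tnnt1, slow troponin T, had 1088 ± 401 CPM in MyoD F/R/C, 48.5 ± 29.5 CPM in MyoD and 5.37 ± 8.46 CPM in MEF (4.49 ± 1.33 over MyoD, adjusted p = 0.0309). Without MEF 3, the counts over MyoD were 10 of 10 thick filament partners, 9 of 9 fast partners and 6 higher and 1 lower of 9 slow partners, and over MEF they were 10 of 10, 9 of 9 and 7 higher and 1 lower of 9. Without MEF 3, MyoD was called higher than MEF for 8 of 10 thick filament partners, 8 of 9 fast partners and 5 of 9 slow partners, and with it for none of them.

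Of 20 regulators of fibre type, 10 were called higher and 2 lower in MyoD F/R/C than in MEF, and 10 higher and 2 lower than in MyoD. The 2 called lower are too few to tell their share from that of all genes. Over MEF, 9 were called higher and 2 lower without MEF 3. Rbfox1, a splicing factor, had 67.0 ± 1.42 CPM in MyoD F/R/C, 6.73 ± 2.55 CPM in MyoD and 1.95 ± 0.60 CPM in MEF (3.31 ± 0.33 over MyoD, adjusted p = 0.00062). Tead4 and Mef2c, transcription factors of the muscle programme, were higher than in MyoD by 3.91 ± 0.41 and 3.38 ± 0.50 on the log2 scale (adjusted p = 0.00068 and 0.0022). Tead1, a relative of Tead4, was at 0.08 ± 0.33 over MEF (adjusted p = 0.866). The 2 lower genes, named after their values were seen, were Nfix, a factor of the fetal muscle stage, at -3.42 ± 0.49 over MEF (adjusted p = 0.0014), and Eya1, a transcriptional cofactor, at -1.86 ± 0.62 (adjusted p = 0.0428). None of the 20 was called in MyoD over MEF, and 1 was without MEF 3.

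The nonmuscle and smooth muscle myosin heavy chains did not move as one, with 2 called lower, 1 higher and 1 not called of 4 tested. Myh9 and Myh10, which encode nonmuscle myosin chains of most cells, fell in MyoD F/R/C relative to MEF by 1.59 ± 0.43 and 2.601 ± 0.389 on the log2 scale (adjusted p = 0.0191 and 0.0017), and relative to MyoD by 1.48 ± 0.43 and 1.75 ± 0.38 (adjusted p = 0.0284 and 0.0092). Myh14, another nonmuscle chain, was called higher at a low level, with 3.83 ± 1.596 CPM in MyoD F/R/C, 0.487 ± 0.349 CPM in MyoD and 0.0442 ± 0.0463 CPM in MEF. Myh11, the smooth muscle chain, had 22.4 ± 25.7 CPM in MyoD F/R/C, 7.11 ± 9.68 CPM in MyoD and 8.56 ± 9.56 CPM in MEF and passed in neither comparison. Of the smooth muscle markers, 1 of 7 tested, Des, which skeletal muscle also makes, was called higher than in MEF, and none than in MyoD. Of 10 fibroblast markers, 4 were called lower than in MEF and 4 than in MyoD, and of 10 skeletal muscle markers 10 were called higher than in MEF and 8 than in MyoD. The calls of this paragraph come from the fit of all 9 libraries, MEF 3 included. The part of these other cell types in the myosin results was not tested.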

How the data were processed

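Estimated counts and TPM per Ensembl transcript were taken from 9 tables deposited by the authors, 1 per library, whose columns, per the file headers, are those of kallisto. The submitters' processing notes name bcl2fastq 2.19, Trimmomatic 0.36, kallisto 0.44, edgeR 3.28 and GRCm38.p6; the annotation release, kallisto's options and whether strand was used are not given in the sources used here. Per the labels' protocols, polyadenylated RNA was made into stranded libraries.

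Estimated counts of 121104 of the 121843 deposited transcripts were summed per gene through GENCODE M21 and rounded to whole numbers, and the other 739 held at most 0.494% of a library's counts. Reads that fit several similar genes were divided among them by kallisto's estimation. Genes were kept by filterByExpr (minimum count 10, minimum total 15), which left 15714, and were scaled by TMM. The edgeR 4.0.16 quasi-likelihood F test in R 4.3.3 was run in 1 fit over all 9 libraries, two-sided, with Benjamini-Hochberg adjustment within each comparison and a threshold of 0.05. The SE of a log2 fold change was its size divided by the square root of F. CPM are on the TMM-scaled library size. Shares were compared by exact permutation tests. The fitting code was tested on simulated data.

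Groups follow the labels. The alternatives were DESeq2 1.42.0, its size factors, total counts, other filters, 2 groups alone, protein-coding transcripts, counts scaled from TPM, leaving out libraries, and a replicate block. Libraries with equal numbers deviated together between MyoD and MEF (correlations 0.632 to 0.729) and weakly between MyoD F/R/C and MyoD (0.0837 to 0.164) or MEF (0.101 to 0.151). By this measure the numbers pair MEF with MyoD. For MyoD F/R/C, every equal-number correlation lay above every unequal-number one. The unequal ones ran from -0.136 to 0.0447 with MyoD and from -0.134 to 0.00939 with MEF. The equal-number correlations were weak, so that a pairing of MyoD F/R/C with either group is possible and not settled. The main fit used no block. The blocked count for MyoD over MEF was 13 genes, against 0 without the block, and 0 members in both. For MyoD F/R/C over MEF, 9 members were called in both. For MyoD F/R/C over MyoD, the block added calls of Myh3 and Myh8, which are given in the last section.

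The members and gene lists were chosen with earlier results of these data known. Of each list, the 3 called genes of smallest adjusted p and the gene of largest adjusted p are named, and lists of 10 or fewer genes may be named in full. The 3 genes outside the family most like each member were taken by Pearson correlation of log2 CPM with a prior count of 2.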

Additional observations from a re-analysis of the deposited data

How the results depend on the processing

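The members called between MyoD F/R/C and MEF numbered 7 to 9 when any 1 library was left out. Between MyoD F/R/C and MyoD they numbered 3 to 8 on leaving out 1 library, against 5 in the fit of all 9, and 8 with these 2 groups alone or without the third MEF and MyoD libraries. Between MyoD and MEF they numbered 0 to 6 on leaving out 1 library, 3 by DESeq2, 1 with no filter and 6 without the third MEF and MyoD libraries. The genes called in that comparison numbered 0 to 161 on leaving out 1 library, 170 by DESeq2, 11 with no filter, 13 with the replicate block and 199 without the third MEF and MyoD libraries. For the member counts of this section, shares of all genes are not given beyond those in the results above. Whether these counts moved with all genes is therefore not shown. With the replicate block, 9 members were called between MyoD F/R/C and MEF and 7 between MyoD F/R/C and MyoD. In the latter, Myh3 (5.84, adjusted p = 0.0214 by edgeR) and Myh8 (6.05, adjusted p = 0.0328) were added. Whether the numbers pair these 2 groups is not settled. The value of Myh2 between MyoD F/R/C and MyoD, 0.00 in the fit of all 9 libraries, changed sign with total counts (-0.13), DESeq2 (-0.0029), no filter (-0.033), an average CPM of at least 1 (-0.035), 2 groups alone (-0.072), the replicate block (-0.016) and counts scaled from TPM (-0.056), and ranged from -0.61 to 0.32 on leaving out 1 library, with -0.069 to -0.071 without any 1 MEF library or MyoD 1 and -0.24 without MyoD 2. In MyoD over MEF, Myh7b was at -0.080 with counts scaled from TPM, Myh13 ranged from -3.59 to 1.90 and Myh6 from -3.58 to 1.90 on leaving out 1 library, and Myh6 was at 0.00 without the third MEF and MyoD libraries, fitted values from groups at or near 0 counts. Ratios of summed members over MEF without MEF 3, and the weight given to calls without MEF 3, were chosen after seeing the data. The cause of these changes was not tested. At this depth, levels under 0.113 to 0.144 CPM could not be told from 0.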
